A study of Mus musculus with 6 samples.

Results

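The 38 genes described here encode proteins that make ribosomes in the nucleolus, together with Myc, and were taken by symbol from a fixed list. All 38 were among the 14490 genes of the mRNA-seq table. The libraries came from natural killer (NK) cells purified by FACS from the spleens of C57BL/6 mice. WT NK cells were Mettl3fl/fl, and cKO NK cells were Ncr1Cre-Mettl3fl/fl, with 3 samples per genotype. Both genotypes carried the floxed Mettl3 alleles, and only cKO carried Cre, which is expressed from the Ncr1 locus that is active in NK cells and other Ncr1+ innate lymphocytes. METTL3 is the catalytic subunit of the enzyme that writes m6A on mRNA. The study's methods put its mice at 6 to 10 weeks of age without giving the age per sample. Pooling of animals, and whether the samples of a genotype came from separate mice, are not given in the sources used here. The p-values set the difference between genotypes against the spread between samples of a genotype, which may be partly technical. They may therefore not carry over to other mice.

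Ribosomes are built in the nucleolus. RNA polymerase I transcribes a long precursor rRNA, small nucleolar ribonucleoproteins (snoRNPs) guide its methylation and pseudouridylation, and large sets of assembly factors fold, cleave and export the precursors of the small and the large subunit. MYC is a transcription factor known for raising the expression of many of these genes in growing lymphocytes. The libraries held polyadenylated RNA, so these data give the mRNAs of the factors, and rRNA and its precursors were not measured.

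Each sample held between 55965515 and 71464042 reads of the listed genes, and a member had between 372 and 58929 reads in a sample. Values are normalized counts, the counts of a gene divided by the size factor of its sample, and a series of 3 values gives replicates 1, 2 and 3 of a genotype (WT 1 to 3, cKO 1 to 3). Mettl3 itself, the targeted gene, was at 1251 ± 56.0 in WT and at 334 ± 61.9 in cKO (SD, n = 3). Defining NK markers were present in every sample, with the 10 listed markers summing to between 614995 and 643321 in WT and between 565066 and 595844 in cKO, and 7 of the 10 were called lower and 1 higher. The 6 B-cell markers summed to between 1248 and 1266 in WT and between 1702 and 1734 in cKO, and 5 of the 6 were called higher. The 6 T-cell markers in the table summed to between 1794 and 1987 in WT and between 1395 and 1619 in cKO, with Cd3g called lower. Of 5 myeloid markers 3 were called higher and 1 lower, of the plasma-cell markers 1 of 3 was called lower, and of the 5 erythroid markers 0 were called, with 1 at an unadjusted p under 0.05. The part of these marker changes in the results below was not tested.

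In cKO NK cells, most of the genes that changed were higher, and the changes were small. Of the 38 genes, 19 rose and 3 fell at an adjusted p under 0.05 (limma on log2(normalized count + 1), two-sided, Benjamini-Hochberg over all 14490 genes). Over all genes tested the test called 36.6%, with 17.8% higher and 18.8% lower, while among the 38 genes it called 57.9%, with 50% higher and 7.89% lower. The median log2 fold change of cKO over WT was 0.14 for the 38 genes and 0.0014 for all genes. With a change of at least 1.2-fold also required, 11 of the 38 genes were called, 10 higher and 1 lower, or 28.9% against 18% of all genes. The largest rise was that of Rrs1, with a log2 fold change of 0.83, and the largest fall that of Polr1c, with -0.40. For 36 of the 38 genes the whole 95% confidence interval lay within 0.5 of zero on the log2 scale, the exceptions being Rrs1 and Nop16.

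The samples of the genotypes did not overlap for 26 of the 38 genes, in 22 with cKO higher and in 4 with cKO lower. Of all 14490 genes 45.7% did not overlap in either direction, 3288 with cKO higher and 3336 with cKO lower. Set against the WT mean of each gene, the median of the 38 genes on the log2 scale was 0.13, 0.16 and 0.13 across cKO 1 to 3 and between -0.0042 and 0.0044 in the WT samples. The WT values are small by construction, since the mean subtracted was that of the same WT samples. Together the 38 genes took between 0.340% and 0.345% of all normalized counts in WT and between 0.366% and 0.375% in cKO. Scaling the samples to equal totals gave 25 higher and 2 lower calls among the 38 genes, and for all genes 3487 higher and 2016 lower calls in place of 2576 and 2731. In bulk samples such as these, fewer cells of a type and less RNA per cell cannot be told apart.

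**Figure D1:**
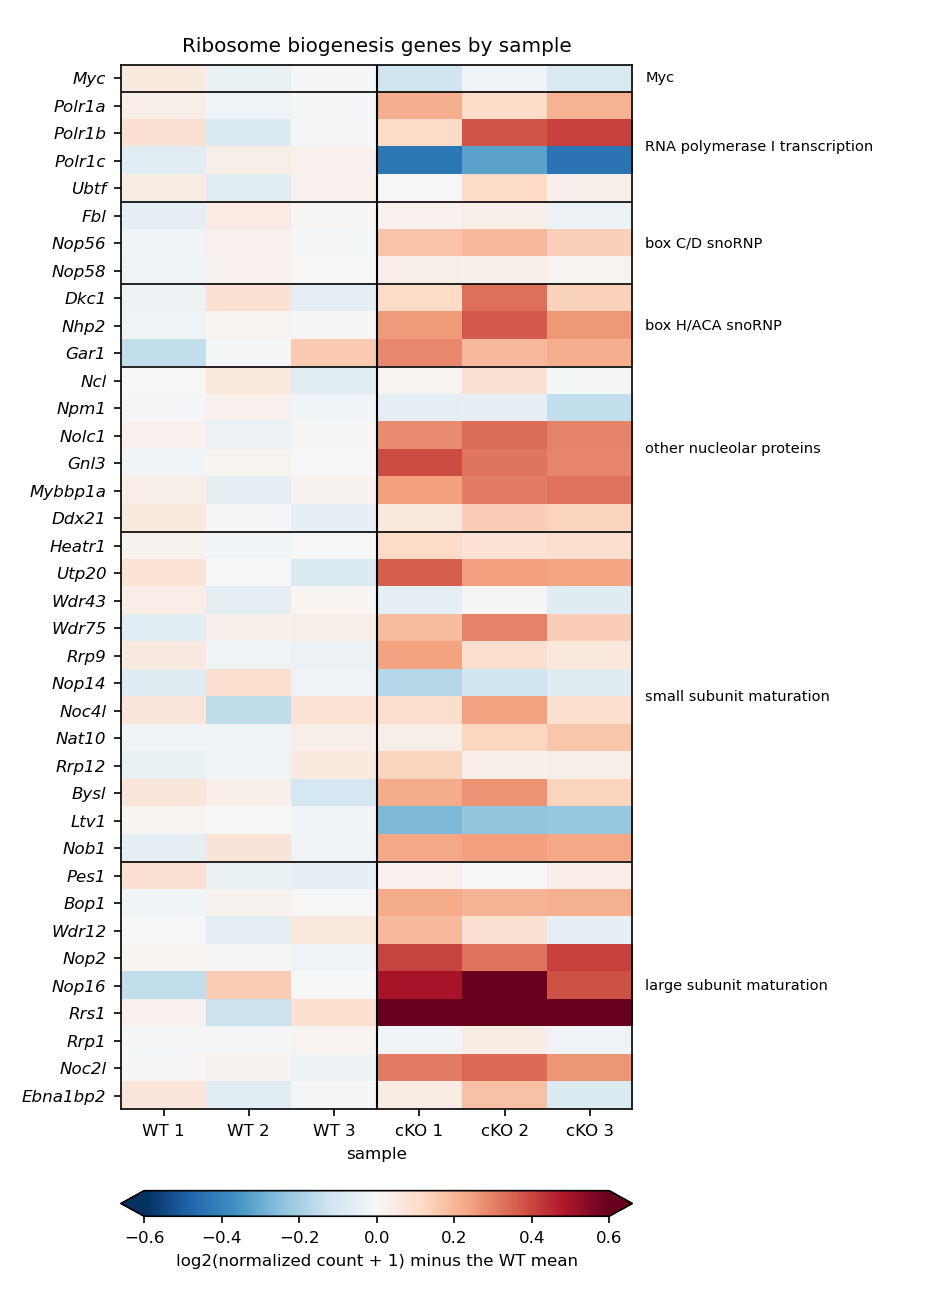
Heat map of the 38 genes (rows, grouped by role) in the 6 samples (columns), coloured by log2(normalized count + 1) minus the mean of the WT samples. Red cells fill most of the cKO columns, with Rrs1 and Nop16 the darkest, while Polr1c, Ltv1, Nop14 and Npm1 are blue in all 3 cKO samples.

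Myc, which encodes the transcription factor, did not pass the test. It stood at 16036, 14956 and 15286 normalized counts across WT 1 to 3 and at 14187, 15254 and 14458 across cKO 1 to 3. cKO sample 2 lay within the WT range, and the log2 fold change was -0.08 ± 0.03 (SE; adjusted p = 0.0885), with a 95% confidence interval from -0.15 to -0.0050. It was called lower in 3 of 14 alternative fits, without WT replicate 2 (adjusted p = 0.0437), without cKO replicate 2 (adjusted p = 0.0246) and with a correction for GC content and length (adjusted p = 0.0416). Its locus spans bases 61985391 to 61990374 of chromosome 15 (GRCm38), plus strand.

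Of 10 other genes of the Myc network in the table, 1 was called higher and 2 lower, with a median log2 fold change of 0.06. That is 30% called, no more than the 36.6% of all genes. Mycn, the neural relative of Myc, was higher in cKO by a log2 fold change of 0.80 (adjusted p = 0.0094), but from a low level, a mean of 55.7 normalized counts in WT and 96.3 in cKO. Mnt and Mxd1, which encode repressors that compete with MYC for its partner MAX, fell by 0.15 (adjusted p = 0.00063) and 0.08 (adjusted p = 0.0209) on the log2 scale. Max itself had a log2 fold change of 0.06 and did not pass (adjusted p = 0.222). The call of Mxd1 was lost with equal totals (adjusted p = 0.306), with upper-quartile scaling (adjusted p = 0.0803), without WT replicate 2 (adjusted p = 0.0703) and without cKO replicates 1 and 3 (adjusted p = 0.0770 and 0.0669), and that of Max was gained with equal totals (adjusted p = 0.0148). The count of called genes in this list was 5 with equal totals and without WT replicate 1, and 2 without WT replicate 2 or cKO replicate 3.

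MYC and MAX are known to bind the E-box CACGTG, and the promoters of the 38 genes were searched for these letters. RefSeq windows of GRCm38.p6, from 250 bases before to 50 after a transcription start, were at hand for 32 of the 38 genes. CACGTG, which reads the same on both strands, stood in the windows of 6 of the 32 genes, or 18.8%, against 11.5% of the genes in the table with a window and 20.9% of 110 other ribosome biogenesis genes. It stood in 3 of 17 genes called higher, in 1 of 2 called lower and in 2 of 13 not called. The sites are shown because they are all the CACGTG letters in these windows, on the strand of the gene, with CACGTG in capitals and up to 10 bases of each side.
Nop2, chr6:125131813-125131838, plus strand, called higher: gtccctggatCACGTGtgttccggtg
Utp20, chr10:88826765-88826787, minus strand, called higher: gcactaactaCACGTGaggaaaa
Mybbp1a, chr11:72441357-72441376, plus strand, called higher: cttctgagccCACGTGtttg
Ltv1, chr10:13193094-13193119, minus strand, called lower: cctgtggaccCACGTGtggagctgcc
Pes1, chr11:3963967-3963992, plus strand, not called: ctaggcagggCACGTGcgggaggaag
Wdr43, chr17:71616222-71616247, plus strand, not called: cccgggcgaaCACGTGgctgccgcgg
The site of Nop2 began 60 bases before the start, and the other 5 lay just after it. A match is a description of letters and no evidence of binding, and a window without it says nothing of the factor.

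Among the genes of RNA polymerase I transcription the subunits moved in opposite directions. Polr1a and Polr1b encode the 2 large catalytic subunits, and both rose. Polr1b stood at 1349, 1196 and 1254 normalized counts across WT 1 to 3 and at 1372, 1645 and 1683 across cKO 1 to 3. cKO sample 1 stood just above the highest WT sample, and the log2 fold change was 0.30 ± 0.07 (SE; adjusted p = 0.0010). Polr1a rose by less, from 1541 ± 34.8 to 1744 ± 70.0 (SD, n = 3), a log2 fold change of 0.18 (adjusted p = 0.0107), and its adjusted p was 0.0590 without cKO replicate 1.

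Polr1c encodes a subunit that RNA polymerase I shares with RNA polymerase III, and it had the largest fall of the 38 genes. Its normalized counts were 6218, 6663 and 6609 across WT 1 to 3 and 4812, 5204 and 4784 across cKO 1 to 3. All 3 cKO samples lay well below all 3 WT samples, with a log2 fold change of -0.40 ± 0.04 (SE; adjusted p = 1.48e-08) that kept its call under every one of the 14 alternatives. Ubtf encodes the factor that opens and marks the rRNA genes for transcription, and its log2 fold change was 0.05 with a 95% confidence interval from -0.02 to 0.13 (adjusted p = 0.302), although scaling to equal totals brought it past the threshold (adjusted p = 0.0274). The base letters before the start of Polr1c are given because it moved against the group, with the stretch CGGAAG, the core bound by ETS-family factors, in capitals.
Polr1c, chr17:46248046-46248295, minus strand, 250 bases before the RefSeq start: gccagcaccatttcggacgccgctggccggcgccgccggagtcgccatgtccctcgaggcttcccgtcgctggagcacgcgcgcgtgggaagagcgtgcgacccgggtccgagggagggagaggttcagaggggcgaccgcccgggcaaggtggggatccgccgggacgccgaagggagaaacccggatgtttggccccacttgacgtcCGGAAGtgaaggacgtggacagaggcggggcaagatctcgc
The letters CGGAAG, searched on both strands, stood in the windows of 16 of the 32 genes (50%), in 70.0% of the 110 other ribosome biogenesis genes and in 35.3% of the genes in the table with a window. They stood in 9 of 17 genes called higher, in 5 of 13 not called and in both genes with a window that were called lower.

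Of the snoRNP proteins, all 3 genes of box H/ACA and 1 of 3 of box C/D rose, a difference that was not tested. Over all genes tested, 17.8% were called higher. The box H/ACA genes were Nhp2 and Gar1, core proteins, and Dkc1, the pseudouridine synthase. Nhp2 stood at 2273, 2338 and 2323 normalized counts across WT 1 to 3 and at 2757, 2980 and 2770 across cKO 1 to 3, a log2 fold change of 0.29 ± 0.05 (SE; adjusted p = 1.46e-05). Its genotypes were clearly apart, and those of Gar1 were close, with WT sample 3 at 1780 and cKO sample 2 at 1832. Gar1 had a log2 fold change of 0.23 ± 0.06 (SE; adjusted p = 0.0040). Dkc1 rose from 1364 ± 78.5 to 1566 ± 131 (SD, n = 3), a log2 fold change of 0.20 (adjusted p = 0.0161), but its adjusted p was 0.0557 without WT replicate 1, 0.0673 without WT replicate 3 and 0.144 without cKO replicate 2.

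Of the 3 box C/D genes, Nop56, a core scaffold protein, rose. Its normalized counts were 11267, 11589 and 11325 across WT 1 to 3 and 12824, 13038 and 12589 across cKO 1 to 3, a log2 fold change of 0.17 ± 0.03 (SE; adjusted p = 0.000125). Nop58, its scaffold partner, had 5728 ± 103 in WT and 5838 ± 45.7 in cKO (SD, n = 3), and Fbl, the methyltransferase fibrillarin, had 6256 ± 235 and 6297 ± 162 (SD, n = 3). Neither passed the test, and their 95% confidence intervals ran from -0.05 to 0.10 and from -0.07 to 0.09 on the log2 scale. Whether the change of Nop56 differed from that of Nop58 was not tested.

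Among 6 other nucleolar proteins, 4 rose and 1 fell, or 83.3% called against 36.6% of all genes. Gnl3 encodes nucleostemin, a nucleolar GTPase of dividing and stem cells, and stood at 3785, 3868 and 3819 normalized counts across WT 1 to 3 and at 5010, 4784 and 4685 across cKO 1 to 3. The groups were far apart for their spread, with a log2 fold change of 0.34 ± 0.04 (SE; adjusted p = 1.85e-07). Nolc1, a chaperone of snoRNPs, rose by 0.31 ± 0.04 (SE; adjusted p = 5.51e-07), from a WT mean of 3994 ± 88.5 to 4937 ± 93.1 (SD, n = 3). Mybbp1a, a MYB-binding nucleolar protein that also acts on pre-rRNA, rose by 0.29 ± 0.04 (SE; adjusted p = 6.28e-07), from 5706 ± 185 to 6991 ± 200 (SD, n = 3). These 3 genes kept their calls under all 14 alternatives.

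Ddx21, an RNA helicase of pre-rRNA transcription and processing, was higher by a log2 fold change of 0.12 (adjusted p = 0.0080), with cKO sample 1 at 19158 just above WT sample 1 at 19097, and its adjusted p was 0.0609 without WT replicate 3. Neither of the abundant nucleolar proteins, nucleolin and nucleophosmin, was called higher. Ncl, which encodes nucleolin, stood at 50318, 52524 and 47961 normalized counts across WT 1 to 3 and at 50850, 53551 and 50068 across cKO 1 to 3. The groups overlapped, and the log2 fold change was 0.04 with a 95% confidence interval from -0.03 to 0.10 (adjusted p = 0.455), which scaling to equal totals brought past the threshold (adjusted p = 0.0316). Npm1, which encodes nucleophosmin, stood at 27410, 28170 and 27323 across WT 1 to 3 and at 26653, 26677 and 24953 across cKO 1 to 3, and was called lower by a narrow margin, with a log2 fold change of -0.08 ± 0.03 (SE; adjusted p = 0.0411). Its adjusted p was 0.393 with equal totals, 0.133 with upper-quartile scaling and 0.355 with a correction for GC content and length. It was 0.0587, 0.135 and 0.0526 without WT replicates 1, 2 and 3, and 0.0533 and 0.269 without cKO replicates 1 and 3. Npm1 has processed copies elsewhere in the genome, and how reads shared with them were counted is not given in the sources used here.

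**Figure D2:**
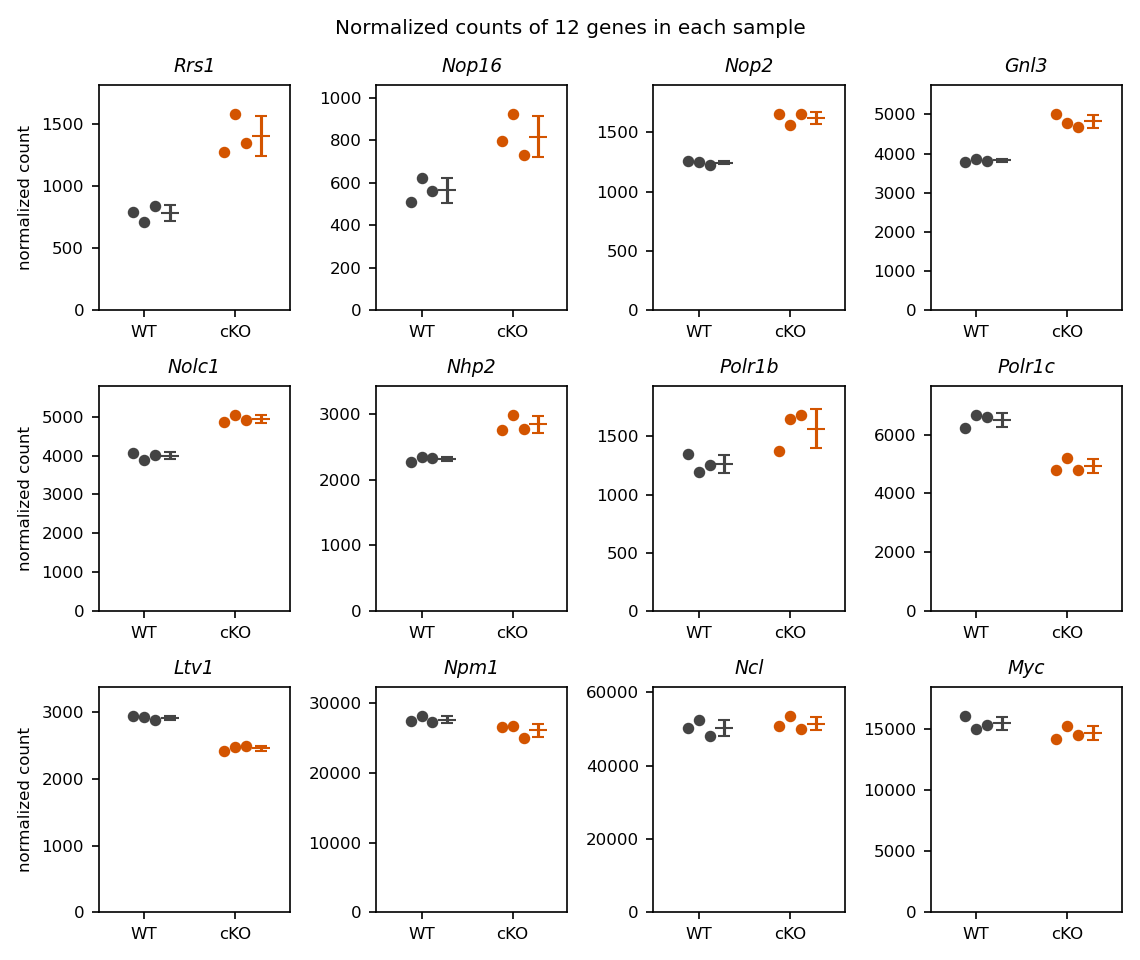
Normalized counts (vertical axes, from 0) of 12 of the genes in each WT and cKO sample, as points, with the mean and SD of the 3 samples beside them. Rrs1 through Polr1b are higher in all 3 cKO samples, Polr1c, Ltv1 and Npm1 are lower in all 3, and the points of Ncl and Myc overlap.

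Of the 12 genes of small subunit maturation, 4 rose, 1 fell and 7 did not pass. That is 41.7% called, close to the 36.6% of all genes. Utp20, a very large scaffold protein of the early precursor, stood at 933, 882 and 830 normalized counts across WT 1 to 3 and at 1129, 1044 and 1036 across cKO 1 to 3, with no overlap and a log2 fold change of 0.28 ± 0.07 (SE; adjusted p = 0.0022). Nob1 encodes the endonuclease that makes the final cut of the small subunit rRNA, and it rose by 0.24 ± 0.05 (SE; adjusted p = 0.000408), from 2039 ± 101 to 2399 ± 16.1 (SD, n = 3). Bysl, an assembly factor of the late nuclear precursor, and Wdr75, a subunit of the complex that joins the earliest precursor, both rose by a log2 fold change of 0.21, with adjusted p of 0.0075 and 0.0074. The adjusted p of Bysl was 0.0603 without WT replicate 3, and that of Wdr75 was 0.0571 without cKO replicate 2. Bysl shares 361 exon bases, 9.37% of its own, with Ccnd3 on the opposite strand, which was far more abundant (between 11698 and 12734 normalized counts) and had a log2 fold change of 0.015. Whether reads were counted by strand is not given in the sources used here, and without it the reads of that stretch cannot be told apart.

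Ltv1 encodes a factor that accompanies the small subunit out of the nucleus and moved the other way. It stood at 2942, 2922 and 2879 normalized counts across WT 1 to 3 and at 2417, 2473 and 2490 across cKO 1 to 3. The groups were wide apart, with a log2 fold change of -0.24 ± 0.04 (SE; adjusted p = 7.39e-05), and the call held under all 14 alternatives. Nop14, a scaffold factor of the early precursor, was also lower in all 3 cKO samples, 2363 ± 82.1 against 2572 ± 155 (SD, n = 3), but did not pass (log2 fold change -0.12, adjusted p = 0.0604). It passed without WT replicate 1 (adjusted p = 0.0283), without cKO replicate 3 (adjusted p = 0.0486) and with the correction for GC content and length (adjusted p = 0.0381), and its log2 fold change was -0.07 (adjusted p = 0.309) without WT replicate 2.

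The other genes of small subunit maturation had log2 fold changes between -0.04 and 0.15. Noc4l, partner of Nop14, had a log2 fold change of 0.15 (adjusted p = 0.0869), Rrp9, a protein of the snoRNP that cleavage of the precursor needs, had 0.13 (adjusted p = 0.0603), and Nat10, an RNA acetyltransferase, had 0.11 (adjusted p = 0.0836). Heatr1, a scaffold subunit that also serves RNA polymerase I transcription, had 0.10 (adjusted p = 0.0948). In Noc4l, Rrp9 and Heatr1 every cKO sample lay above every WT sample, and equal totals or upper-quartile scaling brought these 3 and Nat10 past the threshold. Rrp9 also passed without WT replicate 1 (adjusted p = 0.0457) and without cKO replicate 3 (adjusted p = 0.0367), Noc4l without WT replicate 3 (adjusted p = 0.0489) and Nat10 without cKO replicate 1 (adjusted p = 0.0445). Other omissions lowered these values, with a log2 fold change of 0.08 (adjusted p = 0.348) for Rrp9 without cKO replicate 1 and of 0.07 (adjusted p = 0.441) for Noc4l without WT replicate 2. Rrp12, an export factor, had 0.07 (adjusted p = 0.417), and Wdr43, a subunit of the same early complex as Wdr75, had -0.04 (adjusted p = 0.464), which turned to 0.0089 with equal totals.

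Genes of large subunit maturation held the largest rises, with 5 of 9 called higher, all 9 log2 fold changes above 0 and a median log2 fold change of 0.21. That is 55.6% called higher, against 17.8% of all genes. Rrs1, an assembly factor of the early large subunit precursor, stood at 793, 714 and 837 normalized counts across WT 1 to 3 and at 1270, 1578 and 1345 across cKO 1 to 3. The lowest cKO sample lay far above the highest WT sample, the mean rose 1.79-fold, and the log2 fold change was 0.83 ± 0.08 (SE; adjusted p = 2.48e-09). The gene is a single exon at bases 9545408 to 9547455 of chromosome 1 (GRCm38), plus strand. Among all 14490 genes its log2 fold change stood at percentile 97.9.

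Nop16, another factor of the large subunit precursor and a known MYC target, stood at 508, 625 and 561 normalized counts across WT 1 to 3 and at 794, 923 and 732 across cKO 1 to 3. Its samples did not overlap, with a log2 fold change of 0.53 ± 0.09 (SE; adjusted p = 4.61e-05). Nop2 encodes an rRNA cytosine methyltransferase and stood at 1257, 1253 and 1228 across WT 1 to 3 against 1651, 1561 and 1655 across cKO 1 to 3, a log2 fold change of 0.38 ± 0.06 (SE; adjusted p = 5.38e-06). Its promoter is shown because it was the one whose window had CACGTG before the start, here with CGGAAG on either strand (CTTCCG on the strand printed) also in capitals.
Nop2, chr6:125131633-125131882, plus strand, 250 bases before the RefSeq start: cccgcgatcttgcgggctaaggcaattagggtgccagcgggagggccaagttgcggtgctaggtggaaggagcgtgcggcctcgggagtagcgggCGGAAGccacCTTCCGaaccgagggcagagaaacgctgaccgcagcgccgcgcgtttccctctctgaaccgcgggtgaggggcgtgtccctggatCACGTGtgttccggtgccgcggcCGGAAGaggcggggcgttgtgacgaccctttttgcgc
This stretch was 67.6% G and C, and that of Polr1c 70.4%.

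Noc2l, a partner of other nucleolar assembly factors that is also known as an inhibitor of histone acetylation, rose by 0.30 ± 0.04 (SE; adjusted p = 8.11e-07), from 3750 ± 67.5 to 4631 ± 117 (SD, n = 3). It shares 598 exon bases, 20.9% of its own, with Samd11 on the opposite strand, which was at between 12.2 and 35.7 normalized counts. Bop1, Pes1 and Wdr12 encode the 3 subunits of the PeBoW complex of large subunit processing, and 1 of the 3 passed. Among all genes tested the share called was 36.6%. Bop1 stood at 3437, 3530 and 3475 normalized counts across WT 1 to 3 and at 4060, 4015 and 4030 across cKO 1 to 3, a log2 fold change of 0.21 ± 0.04 (SE; adjusted p = 0.000111). Its genotypes were clearly apart, and those of both partners overlapped. Pes1 had 2493 ± 141 in WT and 2529 ± 38.9 in cKO (SD, n = 3), and Wdr12, the least abundant of the 38 genes, had 462 ± 19.8 and 489 ± 40.8 (SD, n = 3). On the log2 scale the 95% confidence interval ran from -0.08 to 0.12 for Pes1 and from -0.12 to 0.28 for Wdr12. A rise of the size of that of Bop1 lies within the latter. Whether the changes of these 3 genes differed was not tested.

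Rrp1 and Ebna1bp2, factors of the large subunit precursor, did not pass either. Rrp1 had 14116 ± 129 in WT and 14146 ± 358 in cKO (SD, n = 3), with a 95% confidence interval from -0.06 to 0.07 on the log2 scale. Ebna1bp2 had 3144 ± 147 and 3252 ± 287 (SD, n = 3), with an interval from -0.06 to 0.15.

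**Figure D3:**
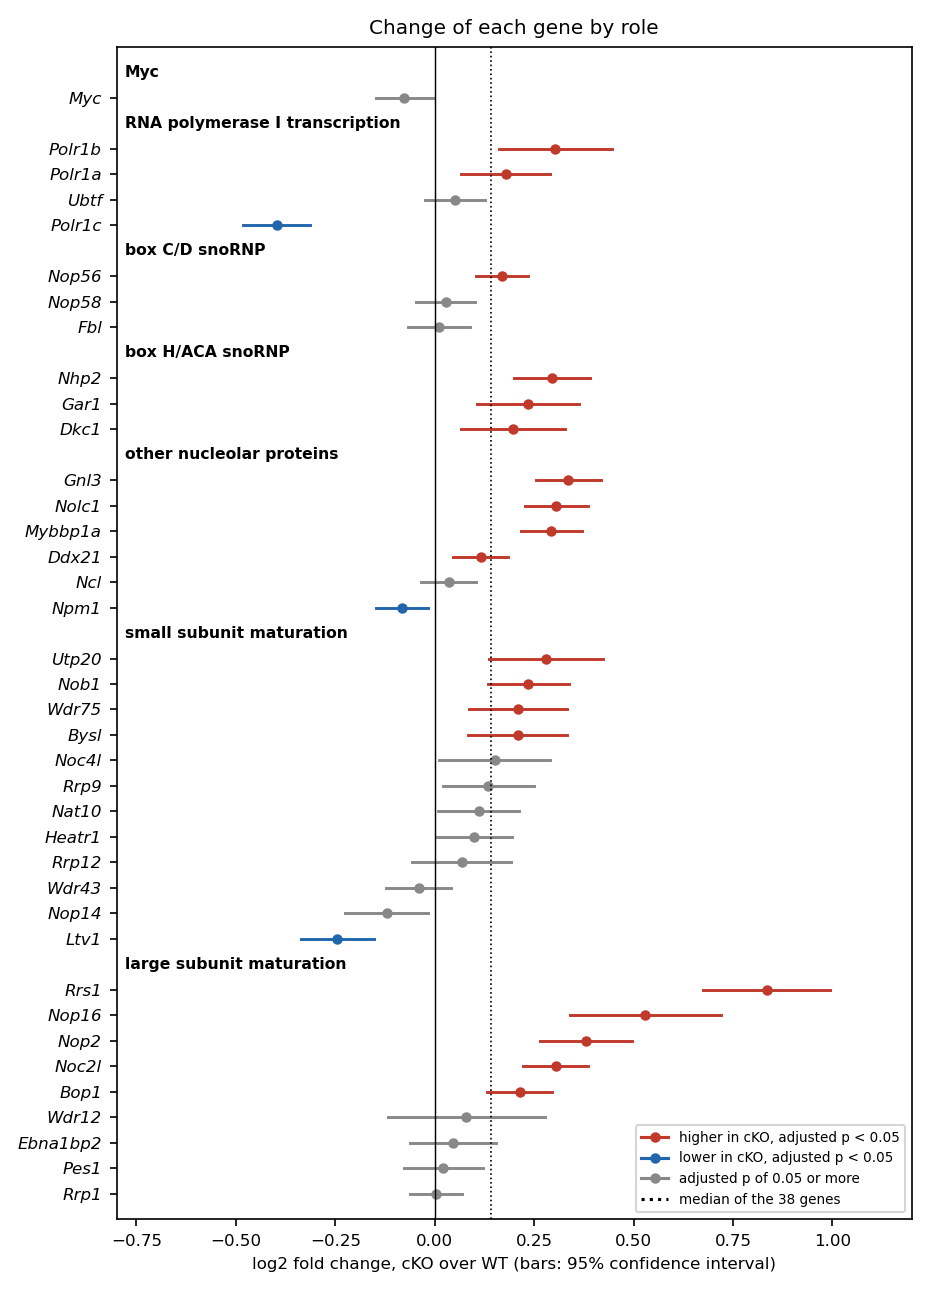
Log2 fold change of cKO over WT (horizontal axis) of each of the 38 genes with its 95% confidence interval, grouped by role and ordered by size, with called genes in colour and the dotted line at the median of 0.14. Rrs1 stands farthest to the right and Polr1c farthest to the left, and the intervals of 36 genes lie within 0.5 of zero.

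More abundant members tended to have lower log2 fold changes. Across the 38 genes the Spearman correlation of the log2 fold change with the mean normalized count was -0.47, given as a description of genes measured in the same 6 libraries, while it was -0.11 across 11793 protein-coding genes of the table. Genes called higher had a median level of 1742 normalized counts, and those called lower 5715. Per kilobase of annotated exon, Npm1 had the highest level in WT, 10369 normalized counts per kilobase, followed by Myc with 5678, Ncl with 4934 and Rrp1 with 4230. At the other end, per kilobase, were Wdr12 with 38.6, Utp20 with 86.4 and Polr1a with 130 in WT. None of the 4 genes with the highest levels per kilobase was called higher. The length was that of the merged exons of all annotated transcripts, which can exceed that of the mRNA made. The order per kilobase therefore depends on the annotation.

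**Figure D4:**
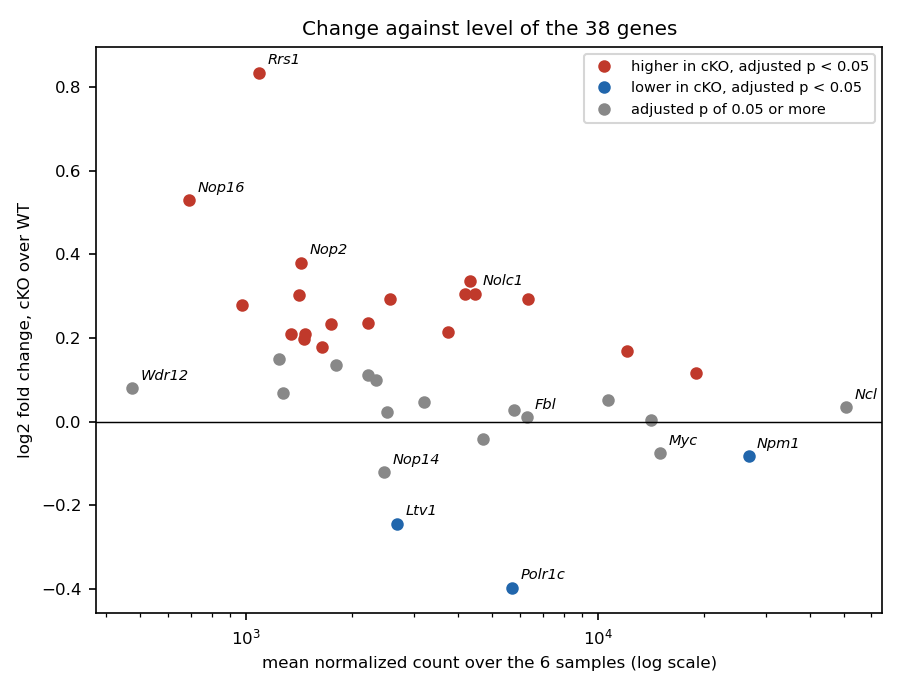
Log2 fold change of cKO over WT (vertical axis) against the mean normalized count over the 6 samples (horizontal log axis) for the 38 genes, coloured by call. The largest rises, Rrs1, Nop16 and Nop2, sit in the left part of the plot, and the genes farthest to the right, Ncl and Npm1, are within 0.1 of zero.

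The 133 other ribosome biogenesis genes in the table leaned the same way, with 58 called higher, 17 lower and a median log2 fold change of 0.10. That is 43.6% higher and 12.8% lower, against 17.8% and 18.8% of all genes. With equal totals the counts were 70 higher and 9 lower, and without cKO replicate 1 they were 50 and 9. Those of all genes were 3487 and 2016 with equal totals, and 2108 and 2309 without cKO replicate 1. Rrp15 and Ccdc86, factors linked to the large subunit, had the highest log2 fold changes among those that passed, of 0.71 (adjusted p = 3.72e-08) and 0.66 (adjusted p = 2.04e-09). Shq1, a chaperone of dyskerin, rose by 0.58 (adjusted p = 0.0013), Nol8 by 0.43 (adjusted p = 2.90e-07), and Mphosph10, a partner of early small subunit factors, by 0.39 (adjusted p = 1.85e-05).

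The lowest of these other genes among those that passed the test were Znrd1, a small subunit of RNA polymerase I, with a log2 fold change of -0.33 (adjusted p = 1.15e-07), and Exosc9, a subunit of the RNA exosome, with -0.25 (adjusted p = 0.0091). They were followed by Naf1, an assembly factor of box H/ACA snoRNPs, with -0.23 (adjusted p = 0.0080), Pih1d1, a cofactor of box C/D assembly, with -0.23 (adjusted p = 0.0038), and Nmd3, the export adaptor of the large subunit, with -0.21 (adjusted p = 0.00031). Exosc9 did not pass without cKO replicate 1 (adjusted p = 0.0662), nor Naf1 without cKO replicate 2 (adjusted p = 0.0539). Znrd1 had a mean of 4919 ± 57.2 in WT and 3904 ± 72.0 in cKO (SD, n = 3), a fall close in size to that of Polr1c.

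By step of the pathway the counts were uneven. Of 45 other small subunit factors 23 rose and 5 fell, and of 51 other large subunit factors 26 rose and 3 fell, with median log2 fold changes of 0.13 in both lists. Of 11 other RNA polymerase I factors 6 rose and 3 fell, with a median of 0.13. Other snoRNP factors had 2 of 12 higher and 3 lower, with a median of -0.03, and the exosome and pre-rRNA nucleases had 1 of 14 higher and 3 lower, with a median of -0.0043. The shares called were 62.2% and 56.9% for the small and large subunit lists and 81.8% for the RNA polymerase I list. They were 41.7% for the snoRNP list and 28.6% for the exosome and nuclease list, against 36.6% of all genes. These lists were not tested against each other.

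**Figure D5:**
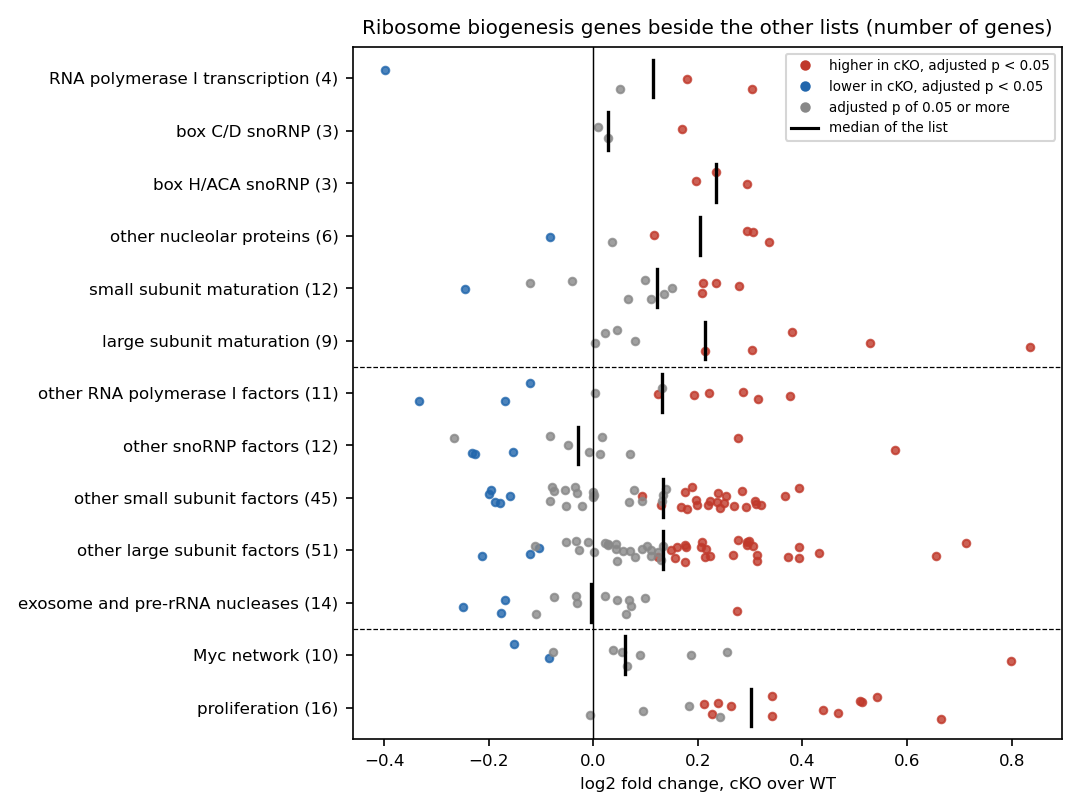
Log2 fold change of cKO over WT (horizontal axis) of each gene in the roles of the 38 genes (top, without Myc), in 5 lists of other ribosome biogenesis genes (middle) and in the Myc network and proliferation lists (bottom), with list sizes in brackets and black bars at the medians. Points lie mostly to the right of zero except for the other snoRNP factors and the exosome and pre-rRNA nucleases.

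Genes of cell division moved in the same samples. Of 16 proliferation genes, 12 were called higher, or 75% against 17.8% of all genes. Of the 16, 15 had a log2 fold change above 0, with a median of 0.30, and among the largest were Mki67 with 0.47, Rrm2 with 0.54 and Birc5 with 0.67. Mcm3 (adjusted p = 0.0792), Tyms (adjusted p = 0.135) and Ccnb1 (adjusted p = 0.179) did not pass. The call of Cdk1 (adjusted p = 0.0297) was kept without WT replicate 3 but lost when any other replicate was left out. Bub1 did not pass without cKO replicate 2 (adjusted p = 0.122). Mcm2 had -0.0059 (adjusted p = 0.922), which turned to 0.04 with equal totals and 0.02 with upper-quartile scaling. These values are of mRNA. At steady state the study found Ki67 protein not significantly different between NK cells of the genotypes, and it reported unchanged cell cycle progression. The part of the proliferation genes in the change of the ribosome biogenesis genes was not tested.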

How the data were processed

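The mRNA-seq libraries of sorted NK cells of both genotypes were used, with 3 samples per genotype grouped by their labels. The authors aligned reads to GRCm38, counted them per gene and divided by DESeq2 size factors, and the deposited sample columns are this signal (submitters' processing notes: HISAT2 2.0.5, featureCounts 1.5.0-p3, DESeq2 1.16.1; the study's methods name other versions). The table's own mean, fold change and p-value columns were not used. Within a sample, 100% of values were whole multiples of the worth of 1 read (tolerance 0.1 reads), which gave the reads per sample.

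Values were compared by limma 3.58.1 in R 4.3.3 on log2(value + 1), with a variance trend and no block, two-sided, and p-values were adjusted over the 14490 genes (Benjamini-Hochberg). A gene was kept if 3 or more samples had a value of 1 or above, which removed 0 genes. Intervals are at the 95% level. The steps were run on simulated data in which few genes changed. That run does not cover data with as many changed genes as here. An exact permutation test of 3 against 3 samples cannot go below p = 0.1 and was not used. Gene positions and merged exon lengths came from GENCODE for GRCm38 and promoters from RefSeq, GRCm38.p6. Every one of the 38 genes is named. Of the other ribosome biogenesis genes, those named have the 5 highest and 5 lowest log2 fold changes with an adjusted p under 0.05 and a mean of at least 1 CPM. The members, lists and tests were chosen with earlier results of these data known. Alternatives were a pseudocount of 0.1, no filter, at least 1 CPM in at least 3 samples, equal totals, upper-quartile scaling, a replicate block, leaving out 1 replicate at a time, and a limit of 1.2-fold. Limma-voom on the recovered reads and a GC content and length correction were added after seeing the data.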

Additional observations from a re-analysis of the deposited data

How the results depend on the processing

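Of the 22 called genes, 16 kept their call under all 14 alternative fits and none changed sign. Of the 16 genes not called, 8 passed in at least 1 alternative. With a change of at least 1.2-fold also required, 11 of the 38 genes and 2608 of all genes were called, the latter count being added after seeing the data. The median log2 fold change of the 38 genes was 0.19 with equal totals, 0.17 with upper-quartile scaling and between 0.12 and 0.17 with 1 replicate left out at a time. Signs changed in genes whose values were close to zero: Wdr43 had 0.0089 with equal totals, Fbl -0.0032 and Rrp1 -0.0014 with the correction for GC content and length. With 1 replicate left out at a time, Fbl ranged from -0.019 to 0.035, Pes1 from -0.0023 to 0.068, Rrp1 from -0.018 to 0.014 and Ebna1bp2 from -0.018 to 0.11.

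With the replicate block, 20 of the 38 genes were called higher and 4 lower, beside 2692 higher and 2851 lower among all genes. The added calls among the 38 genes were Rrp9 (adjusted p = 0.0415) and Nop14 (adjusted p = 0.0444). The deviations of samples with the same number correlated between -0.02 and 0.12, and not every sample correlated best with its own number. With 3 samples per genotype, these correlations cannot show whether samples of the same number shared a batch. The edgeR and DESeq2 tests planned as alternatives were not run. Limma-voom on recovered reads gave 19 higher and 3 lower among the 38 genes, and 2540 higher and 2706 lower among all genes. Depth bounds the precision most for Wdr12, with the fewest reads.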

Other observations

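Some of the 38 genes host small nucleolar RNAs, and 6 of these RNAs were in the table, 3 of them within Gnl3. Snord69 stood at 150, 178 and 114 normalized counts across WT 1 to 3 and at 226, 206 and 204 across cKO 1 to 3, a change of 0.54 on the log2 scale (limma, adjusted p = 0.0117). Snord19 stood at 45.7, 34.5 and 41.0 normalized counts across WT 1 to 3 and at 79.3, 64.5 and 64.9 across cKO 1 to 3, a change of 0.77 on the log2 scale (limma, adjusted p = 0.0268). Gm24916 had a log2 change of 0.31, which did not pass (limma, adjusted p = 0.585). These small RNAs share annotated exon bases with Gnl3, the libraries were made from polyadenylated RNA, and reads of the small RNA and of its host cannot be told apart here. Within Wdr43, Snord53 had a log2 change of 0.06 (limma, adjusted p = 0.906) and Gm22858 of -0.07 (limma, adjusted p = 0.918). Gm26287, within Nop58, had the largest log2 change of the 6, 0.99, at between 3.90 and 32.5 normalized counts, and did not pass (limma, adjusted p = 0.167). Snord69 did not pass without WT replicate 3 (limma, adjusted p = 0.0900) or without cKO replicate 1 (limma, adjusted p = 0.0536). Snord19 did not pass without WT replicate 2 (limma, adjusted p = 0.0817) or without cKO replicate 1 or 3 (limma, adjusted p = 0.115 and 0.0512). These genes were chosen after their values were seen.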
